A study of Mus musculus with 12 samples.

Results

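Proliferating adherent neural stem (ANS) cells, named T0, were compared with ANS cells taken 2 days after the change to medium B, named T2, when the labels describe division as absent and differentiation as beginning. The samples were chosen by their labelled time point alone, which gave 3 T0 and 4 T2 libraries, 7 of the 12 in the series. ANS cells are neural progenitors grown as an attached layer. Here they came from the brain of normal mouse embryos at E14.5, named for the embryonic day, and polyA RNA was sequenced. T0 cells grew in Euromed-N medium with N2 supplement, 20 ng/ml FGF2 and 20 ng/ml EGF. T2 cells had first passed through medium D1, in which FGF2 was at 10 ng/ml, EGF at 2 ng/ml and B27 supplement was added. They were then dissociated, reseeded on laminin and kept in a mix of DMEM/F12 and Neurobasal with N2, B27, 10 ng/ml FGF2 and 20 ng/ml BDNF, with no EGF listed. Growth factors, basal medium, B27, laminin, reseeding and time in culture therefore all differ between the groups and cannot be told apart. The labels do not say whether the samples of a group came from separate embryos, lines or cultures. The methods name biological replicates without saying what they share, and the p-values measure the spread between these samples. The RNA is that of whole cultures, in which fewer cells of a type and less RNA per cell cannot be told apart.

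FGF and EGF act through receptor tyrosine kinases and the ERK cascade to keep neural progenitors dividing, and dividing cells draw on glycolysis, one-carbon metabolism and the synthesis of nucleotides and sterols for new DNA and membrane. Progenitors of the ventral forebrain that leave the cycle take up a GABAergic neuronal or an oligodendrocyte fate, with Notch signalling between neighbours holding part of them back. Progenitors hold on to extracellular matrix through integrins and proteoglycans, and young neurons are known for adhesion molecules of the immunoglobulin, cadherin and synaptic families.

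The T0 libraries held 13426197 to 15215931 reads counted on genes and the T2 libraries 10118378 to 16048942. T0 replicate 3 stood apart from the other T0 libraries. The chi-square per gene between it and replicates 1 and 2 was 101.4 and 105.3, against 3.28 between replicates 1 and 2 and 7.62 to 22.95 between T2 libraries. It also had 13.3% of its uniquely aligned reads on no gene, against 18.8% to 24.1% in the other 6 libraries. Values without T0 replicate 3 are therefore given beside each group of genes. Summed over a list of 19 neuron markers the level was 948 to 1020 CPM (counts scaled to library size) at T0 and 2290 to 2851 CPM at T2. Over 19 markers of the oligodendrocyte lineage it was 3856 to 4056 CPM and 5021 to 6013 CPM. A large part of these sums was Olig1 alone, whose values are given below. Over 15 astrocyte markers it was 4862 to 7747 CPM and 5136 to 7269 CPM. Markers of cells foreign to a neural culture were low. Of 14 microglia and macrophage markers, 13 had at most 3 counts in every library, among them Ptprc, Aif1 and Csf1r, and the list summed to at most 7.04 CPM. The endothelial list summed to at most 12.7 CPM and the list of mural cells and fibroblasts to at most 3.13 CPM.

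Of 12607 genes tested, 2751 were lower at T2 (21.8%) and 2704 higher (21.4%), or 43.3% in either direction, at an adjusted p below 0.05 in the quasi-likelihood test of edgeR. The median log2 fold change, T2 against T0, was 0.00 over all genes tested, -0.86 over the lower genes and 0.99 over the higher ones. The 2 groups of libraries did not overlap for 54.2% of all genes tested. Among called genes, 1101 fell and 1338 rose by more than 2-fold. Without T0 replicate 3 the counts were 3215 and 3391. Genes for metabolism, signalling, adhesion and gene regulation were followed in 31 lists, and cell types in 6 lists of markers. Each list count below is to be read beside the shares over all genes tested, 21.8% lower and 21.4% higher. Together the lists name 938 genes, of which 784 passed the filter on low counts. A gene read at 1 stage only can pass that filter because it differs, so the counts below are of the members tested and not of all members. In each list up to 3 falls and 3 rises were named by size among genes with separate groups, and the further members named were chosen for their role after their values were seen.

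**Figure D1:**
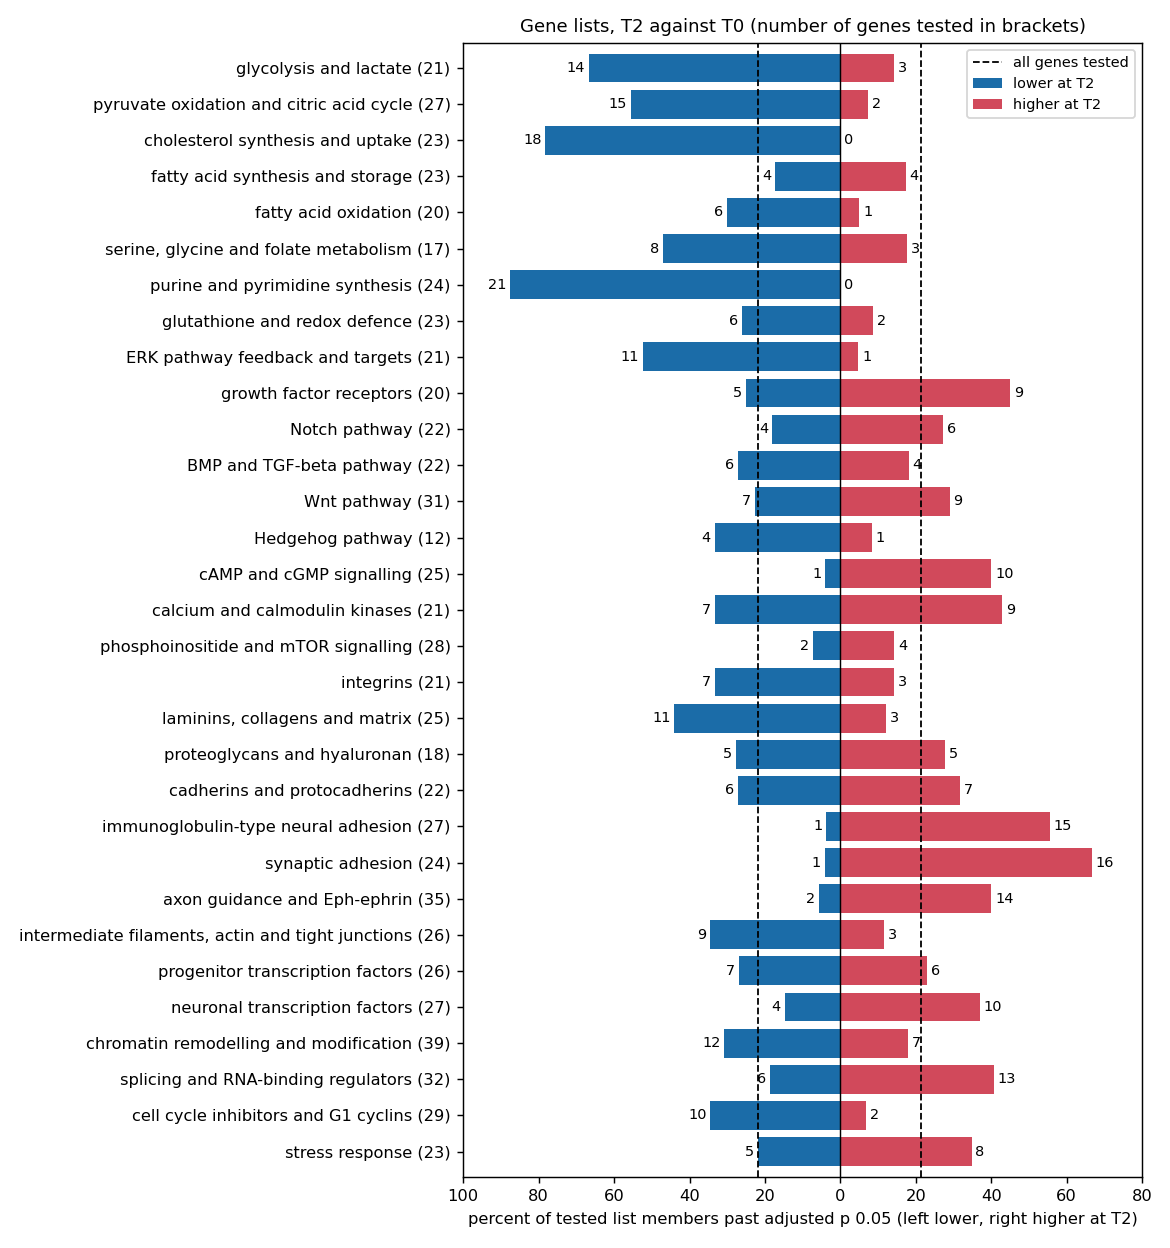
Percent of the tested members of each of 31 gene lists that were lower (blue, to the left) or higher (red, to the right) at T2 than at T0 at an adjusted p below 0.05, with the number of genes at the bar ends and the number tested in brackets. Dashed lines mark the shares over all genes tested, 21.8% lower and 21.4% higher. Purine and pyrimidine synthesis (21 of 24) and cholesterol synthesis (18 of 23) reach farthest to the left, and synaptic adhesion (16 of 24) and immunoglobulin-type neural adhesion (15 of 27) farthest to the right.

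Genes of glucose uptake, glycolysis and lactate formation fell at T2. Of 21 tested genes of glycolysis and lactate metabolism, 14 were lower and 3 higher at T2, against 21.8% and 21.4% of all genes tested, with a median log2 fold change of -1.16 against 0.00 over all genes. The split was 15 and 3 without T0 replicate 3, with a median of -1.10. The groups did not overlap for 17 of the 21, against 54.2% of all genes tested. Hk2 (mm9 chr6:82675019-82724448, minus strand), the hexokinase of growing tissues, stood at 84.9, 82.2 and 116 CPM at T0 and 22.96, 23.9, 14.9 and 22.7 CPM at T2 (log2 fold change -2.16, SE 0.20, adjusted p = 0.000127). All T2 libraries lay below all T0 libraries, as for each gene of glycolysis given with its values here. Slc2a1 (chr4:118781316-118809935, plus strand), the main glucose transporter of dividing cells, stood at 78.4, 67.7 and 69.9 CPM at T0 and 20.4, 17.6, 28.1 and 22.9 CPM at T2 (log2 fold change -1.69, SE 0.16, adjusted p = 0.000151). Ldha (chr7:54096845-54110997, plus strand), the lactate dehydrogenase subunit that favours lactate formation, stood at 663, 693 and 1044 CPM at T0 and 211, 198, 210.0 and 256 CPM at T2 (log2 fold change -1.87, SE 0.18, adjusted p = 0.000157). T0 replicate 3 was the highest T0 library for Hk2 and Ldha and lay between the other two for Slc2a1, and without it the log2 fold changes were -1.98, -1.63 and -1.72. Enzymes of the steps between them fell too, with log2 fold changes of -1.65 for Tpi1, -1.49 for Aldoa, -1.43 for Pfkl, -1.16 for Pkm2 and -0.82 for Gpi1. Pdk1, a kinase that shuts pyruvate dehydrogenase off, fell too (log2 fold change -1.47, SE 0.25, adjusted p = 0.0021). Aldoc (log2 fold change -0.30, adjusted p = 0.211), Pfkm (-0.13, adjusted p = 0.348), Pfkp and Slc2a3 did not pass the test.

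Of the 3 members that rose, Hk1 and Ldhb encode alternative forms of enzymes that fell. Hk1 (chr10:61731603-61842656, minus strand), the hexokinase of brain, stood at 94.8, 98.4 and 60.2 CPM at T0 and 131, 136, 162 and 137 CPM at T2 (log2 fold change 0.75, SE 0.18, adjusted p = 0.0109). Ldhb (chr6:142438769-142456477, minus strand), the subunit that favours pyruvate, stood at 91.1, 94.1 and 58.4 CPM at T0 and 194, 184, 206 and 196 CPM at T2 (log2 fold change 1.26, SE 0.17, adjusted p = 0.000716). Pfkfb3, which makes the activator of phosphofructokinase, rose by 0.82 on the log2 scale. No T2 library overlapped a T0 library for any of the 3, which the rule for naming genes by size required. In FPKM, which scales to transcript length and so allows genes to be compared, the ratio of Ldhb to Ldha was 0.171, 0.172 and 0.071 at T0 and 1.15, 1.17, 1.25 and 0.986 at T2. The ratio of Hk1 to Hk2 was 1.47, 1.66 and 0.822 at T0 and 7.35, 7.23, 10.1 and 6.85 at T2. Both ratios separated the groups completely, as the single genes in them already did. The exact two-sided permutation test gave p = 0.0571 for each, the smallest value that 3 against 4 libraries allow, and the same after Benjamini-Hochberg adjustment over the 6 ratios compared here. Each of the 6 ratios sets a gene that rose against a gene that fell. The p-values of the ratios therefore add no support to the changes of the single genes. Gapdh, Eno1, Pgk1 and Pgam1 have many processed copies in the genome, and reads that align more than once are not in the counts. Their levels are uncertain, and Eno1, at 1.56 to 2.14 CPM in the T0 count tables, was at 98.2 to 157 FPKM in the deposited FPKM table.

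Mitochondrial genes of glucose breakdown fell by smaller amounts. Of 27 tested genes of pyruvate oxidation and the citric acid cycle, 15 were lower and 2 higher, with a median log2 fold change of -0.34, and 16 were lower and 3 higher without T0 replicate 3. The median without that library was -0.29. The lower count was 8 without T2 replicate 1 and 9 without T2 replicate 2 or 3. Pdha1, the catalytic subunit of pyruvate dehydrogenase, stood at 373, 413 and 427 CPM at T0 and 217, 205, 194 and 223 CPM at T2 (log2 fold change -0.95, SE 0.10, adjusted p = 0.000245). Cs, the citrate synthase (-0.74), Sdha, a subunit of succinate dehydrogenase (-0.55), and Idh2, the mitochondrial NADP-linked isocitrate dehydrogenase (-1.11), fell too. The 2 genes that rose encode the 2 subunits of the mitochondrial pyruvate carrier, listed in the tables as Brp44 and Brp44l. Brp44 (chr1:167391168-167411345, plus strand) stood at 26.5, 21.0 and 26.9 CPM at T0 and 46.4, 45.4, 54.0 and 50.04 CPM at T2 (log2 fold change 0.98, SE 0.13, adjusted p = 0.000781). Brp44l stood at 3.65, 3.04 and 4.42 CPM at T0 and 6.75, 6.31, 8.86 and 8.16 CPM at T2 (log2 fold change 1.02, SE 0.22, adjusted p = 0.00707). Both were higher in every T2 library than in any T0 library, which the rule for naming genes by size required. Ucp2, an inner membrane carrier named for uncoupling, had the largest fall of the list, from 15.3 ± 8.18 CPM (SD, n = 3) to 0.551 ± 0.244 CPM (SD, n = 4) (log2 fold change -4.79, SE 0.52, adjusted p = 0.000244).

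Genes of sterol synthesis and uptake fell, and T0 replicate 3 was far above the other libraries for many of them. Of 23 tested genes of cholesterol synthesis and uptake, 18 were lower and 0 higher in edgeR, with a median log2 fold change of -1.005. Without T0 replicate 3, 15 were lower and 1 higher with a median of -0.55, and the lower count was 10 without T2 replicate 2 and 11 without T2 replicate 1, 3 or 4. With the replicate number as a block in the fit, the lower count was 6. At an unadjusted p below 0.05, 0 were higher with all 7 libraries, and DESeq2 called 18 lower and 0 higher. Stard4, a cytosolic sterol carrier, stood at 75.0, 75.5 and 127 CPM at T0 and 28.8, 30.4, 14.53 and 31.3 CPM at T2 (log2 fold change -1.81, SE 0.29, adjusted p = 0.00165). Fdps, the farnesyl diphosphate synthase, stood at 30.5, 30.8 and 97.2 CPM at T0 and 13.5, 12.2, 12.2 and 17.4 CPM at T2 (log2 fold change -1.93, SE 0.41, adjusted p = 0.00622). T0 replicate 3 held the top value of both, at more than 3 times the other T0 libraries for Fdps, yet replicates 1 and 2 also lay above every T2 library. Without it the log2 fold changes were -1.51 and -1.14, both still past the threshold. Sqle, the squalene epoxidase, was at 226 to 491 CPM at T0 and 243 to 352 CPM at T2 (log2 fold change -0.02, adjusted p = 0.966), and without T0 replicate 3 it was the 1 member called higher (0.42).

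The starts of these sterol genes are shown because they moved as a group and a short sequence recurs there. The letters CCAAT, on either strand, were found within 250 bases before a RefSeq start (GRCm38.p6, a later build than the files) of 15 of 16 tested cholesterol genes that have an entry. Over all 8977 tested genes with an entry the share was 41.1%, over those lower at T2 45.5% and over those higher at T2 40.4%. The 120 bases before the start are given 5′ to 3′ for the 4 called genes with the largest falls, 1 entry and the motif in that stretch, with the motif or its reverse complement in capitals.
Idi1 (chr13:8885486-8885605, plus strand): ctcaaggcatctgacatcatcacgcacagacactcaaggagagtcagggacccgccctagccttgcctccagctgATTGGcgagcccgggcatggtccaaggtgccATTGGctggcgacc
Hsd17b7 (chr1:169969206-169969325, minus strand): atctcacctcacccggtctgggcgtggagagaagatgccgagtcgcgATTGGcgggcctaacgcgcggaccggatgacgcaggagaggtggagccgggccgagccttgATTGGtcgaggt
Tm7sf2 (chr19:6067851-6067970, minus strand): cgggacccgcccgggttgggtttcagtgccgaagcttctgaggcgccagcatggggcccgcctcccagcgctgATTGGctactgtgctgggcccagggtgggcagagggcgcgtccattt
Nsdhl (chrX:72918401-72918520, plus strand): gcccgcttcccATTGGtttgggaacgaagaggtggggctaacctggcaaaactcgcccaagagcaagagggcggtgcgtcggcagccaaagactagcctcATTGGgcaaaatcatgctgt
All 7 matches in these stretches are in the reverse orientation, ATTGG, and begin 12 to 109 bases before the start. CCAAT was 1 of 16 motifs searched, and it was singled out after the counts were seen, so the share describes these genes and tests nothing. The sterol element, searched as TCACNCCAC and TCACCCCAC, was found in 0 of the 16 cholesterol genes. Over all tested genes with an entry the shares of these 2 forms were 1.26% and 0.691%. In the same window of all 27025 RefSeq entries the share was 37.5%, and it was 38.1% of 21 genes of nucleotide synthesis and 35% of 20 genes of glycolysis. Idi1 stood at 3.73, 4.90 and 13.2 CPM at T0 and 2.99, 2.32, 0.731 and 1.96 CPM at T2 (log2 fold change -1.86, SE 0.53, adjusted p = 0.0223). Tm7sf2, a sterol reductase, stood at 24.2, 26.4 and 24.4 CPM at T0 and 10.03, 8.73, 10.96 and 12.8 CPM at T2 (log2 fold change -1.23, SE 0.16, adjusted p = 0.000563). Hsd17b7, another reductase, stood at 28.9, 29.5 and 107 CPM at T0 and 23.1, 22.7, 15.2 and 22.4 CPM at T2 (log2 fold change -1.402, SE 0.45, adjusted p = 0.0347), and Nsdhl, a dehydrogenase of the same steps, at 59.8, 58.0 and 124 CPM at T0 and 34.2, 35.8, 31.8 and 40.6 CPM at T2 (log2 fold change -1.18, SE 0.26, adjusted p = 0.00792). Without T0 replicate 3 the log2 fold changes were -1.12, -0.49, -1.24 and -0.72 in the order of the sequences. That of Idi1 was -2.18 to -1.12 when 1 library was left out, with the call lost without T2 replicates 2 or 4. That of Hsd17b7 was -1.71 to -0.49 when 1 library was left out, with the call lost without T2 replicates 1, 2, 3 or 4. Tm7sf2 and Nsdhl kept their calls under every omission.

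Genes of fatty acid synthesis changed in both directions. Of 23 tested genes of fatty acid synthesis and storage, 4 were lower and 4 higher, shares of 17.4% each against 21.8% and 21.4% of all genes tested, and 5 and 6 without T0 replicate 3. The median log2 fold change was -0.17, and -0.07 without that library. Scd1, the desaturase that makes oleate, stood at 165, 168 and 308 CPM at T0 and 59.5, 48.4, 31.4 and 56.5 CPM at T2 (log2 fold change -2.12, SE 0.28, adjusted p = 0.000676). Lpl (-1.66) and Elovl6 (-1.21) fell as well. Fads2 (0.70) and Elovl4 (0.60), enzymes of long polyunsaturated chains, rose, as did Fads3 (2.54). Fasn, the fatty acid synthase itself, was at 755 to 1241 CPM at T0 and 837 to 1015 CPM at T2 (log2 fold change 0.02, adjusted p = 0.943). For fatty acid oxidation, 6 of 20 were lower and 1 was higher, and the higher count was 0 without T2 replicate 1, 2, 3 or 4. Without T0 replicate 3 the counts were 10 and 1, and the median went from -0.19 to -0.30. Acadl (-0.86), Acadvl (-0.53) and Etfa (-0.74), which act in mitochondrial oxidation, were among the lower genes.

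Nucleotide synthesis had the largest share of lower genes of the 31 lists. Of 24 tested genes of purine and pyrimidine synthesis, 21 were lower and 0 higher in edgeR, with or without T0 replicate 3. At an unadjusted p below 0.05, 0 were higher, and DESeq2 called 21 lower and 0 higher. The median log2 fold change was -1.16, and -0.83 without that library. Tk1 (chr11:117676840-117687406, minus strand), the thymidine kinase of S phase, stood at 82.8, 76.9 and 143 CPM at T0 and 13.1, 13.4, 6.94 and 7.85 CPM at T2 (log2 fold change -3.30, SE 0.31, adjusted p = 0.000142). Rrm2 (chr12:25393106-25399011, plus strand), the regulatory subunit of ribonucleotide reductase, stood at 160.0, 142 and 318 CPM at T0 and 27.2, 24.3, 16.4 and 20.4 CPM at T2 (log2 fold change -3.23, SE 0.30, adjusted p = 0.000142). T0 replicate 3 was the highest library for both, and the log2 fold changes without it were -2.97 and -2.78. Of other genes for thymidine nucleotides the log2 fold change was -2.32 for Tyms and -2.15 for Dut, and of genes for the purine ring -0.77 for Paics and -0.52 for Pfas. Folate enzymes that feed these steps fell too. Shmt1, which passes a carbon from serine to folate in the cytosol, stood at 81.1, 76.1 and 194 CPM at T0 and 21.8, 20.3, 17.4 and 20.6 CPM at T2 (log2 fold change -2.54, SE 0.32, adjusted p = 0.000504). Mthfd2, a mitochondrial enzyme of the folate cycle, stood at 23.8, 24.8 and 99.2 CPM at T0 and 11.7, 9.84, 9.59 and 8.89 CPM at T2 (log2 fold change -2.30, SE 0.49, adjusted p = 0.0062), and -1.29 without T0 replicate 3. Over the list of serine, glycine and folate metabolism, 8 of 17 were lower and 3 higher (median -0.34), and 9 and 4 of 18 without T0 replicate 3 (median -0.24). Among them Mthfd1l (-1.85) fell and Aldh1l2 (0.85) rose. The higher count was 1 without T2 replicate 1, 3 or 4. The other higher genes were Mthfd2l (0.31 to 0.37 when 1 library was left out, with the call lost without T0 replicates 1 or 2 or T2 replicates 1, 3 or 4) and the serine transporter Slc1a4 (0.45 to 0.81 when 1 library was left out, with the call lost without T2 replicates 1, 3 or 4). Phgdh and Psat1, which make serine, did not pass the test (adjusted p = 0.2 and 0.198).

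Of 23 tested genes of glutathione and redox defence, 6 were lower and 2 higher, with a median log2 fold change of -0.01. These are shares of 26.1% and 8.70%, against 21.8% and 21.4% of all genes tested. The split was 6 and 6 without T0 replicate 3 (median 0.04), and the lower count was 3 without T2 replicate 2. Gsr, the glutathione reductase, stood at 81.05, 90.5 and 156 CPM at T0 and 34.0, 41.0, 42.6 and 43.5 CPM at T2 (log2 fold change -1.44, SE 0.22, adjusted p = 0.00142), and Prdx1 (-0.95) and Sod1 (-0.55) fell by less. The 2 that rose were Cat, catalase, at 140.4, 139 and 100.1 CPM at T0 and 298, 265, 369 and 320.2 CPM at T2 (log2 fold change 1.31, SE 0.17, adjusted p = 0.00056), and Slc7a11 (chr3:50168858-50247535, minus strand), the cystine importer, at 11.5, 12.01 and 17.8 CPM at T0 and 67.0, 51.0, 122 and 57.8 CPM at T2 (log2 fold change 2.43, SE 0.34, adjusted p = 0.000826). T2 replicate 3 held the top value of Slc7a11, at 122 CPM, and all 4 T2 libraries lay above all T0 libraries. Genes of the stress response went both ways, 5 lower and 8 higher of 23 (median log2 fold change 0.04), shares of 21.7% and 34.8%. Without T0 replicate 3 the counts were 7 and 11 of 24 (median 0.20). Vegfa, the hypoxia-responsive growth factor of vessels, stood at 267, 252 and 49.6 CPM at T0 and 32.3, 32.7, 37.3 and 33.0 CPM at T2 (log2 fold change -2.48, SE 0.47, adjusted p = 0.00383). Its level in T0 replicate 3 was nearer to those of T2 than to those of the other T0 libraries, and without that library the change was -2.94. Ddit3 (1.55), Chac1 (2.96) and Atf3 (1.62) rose, as did Bbc3 (1.498), which promotes cell death, and the death receptor Fas (1.81). The immediate early genes Junb (-1.63) and Ier2 (-1.54) fell. The factor Atf4 (adjusted p = 0.456) and the chaperone Hspa5 (adjusted p = 0.862) did not pass the test.

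**Figure D2:**
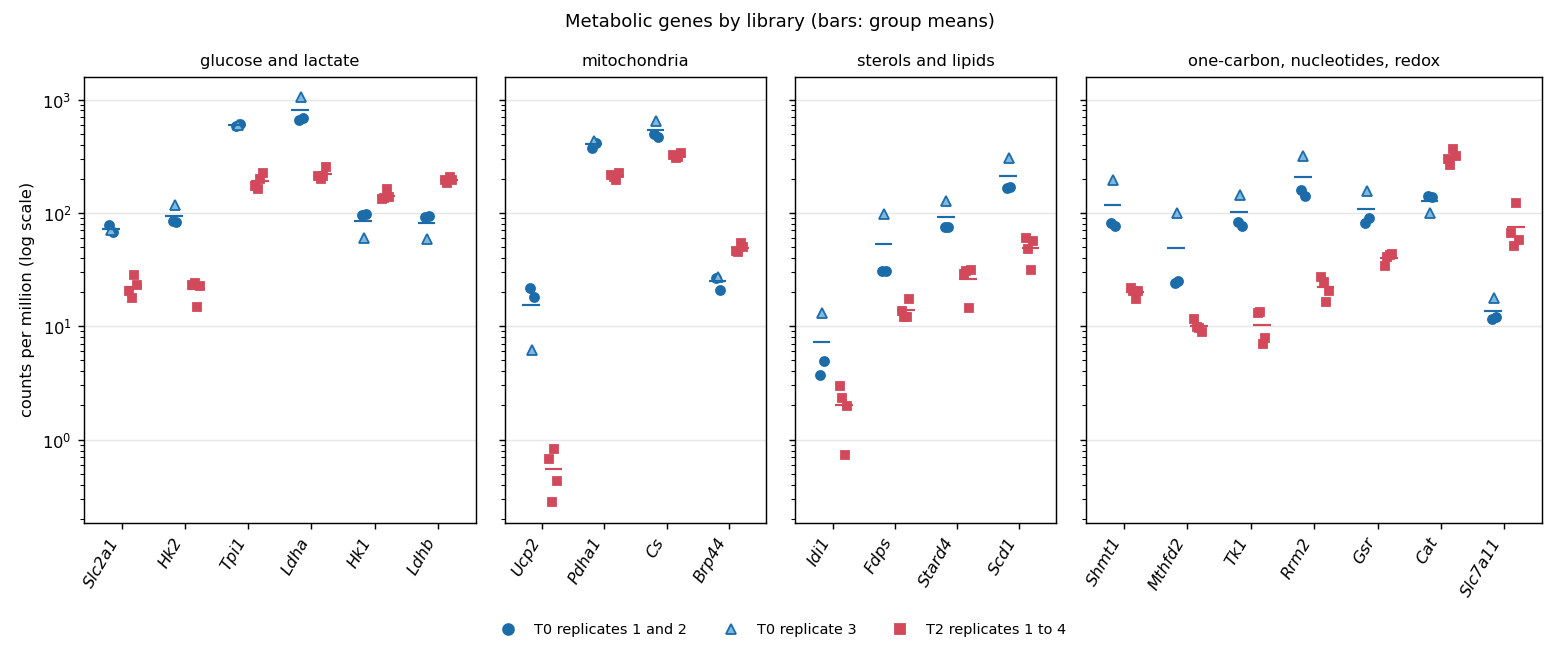
CPM, on a log scale, of 21 metabolic genes in each library, with circles for T0 replicates 1 and 2, triangles for T0 replicate 3, squares for the 4 T2 libraries and horizontal bars for group means. Hk2 falls while Hk1 rises, Ldha falls while Ldhb rises, and T0 replicate 3 sits above the other T0 libraries for Fdps (97.2 CPM), Mthfd2 (99.2 CPM) and Rrm2 (318 CPM).

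In the list of feedback genes and targets of the ERK cascade, more genes fell than rose. Of 21 tested, 11 were lower and 1 higher, against 21.8% and 21.4% of all genes tested, with a median log2 fold change of -0.75. Without T0 replicate 3 the counts were 12 and 1 and the median -0.40. Dusp6 (chr10:98725865-98730122, plus strand), the phosphatase that ERK induces against itself, stood at 159, 129 and 521 CPM at T0 and 51.0, 49.3, 34.1 and 41.9 CPM at T2 (log2 fold change -2.61, SE 0.45, adjusted p = 0.00248). Spry4, a Sprouty inhibitor of receptor signalling, stood at 70.5, 63.0 and 296 CPM at T0 and 25.4, 28.5, 16.2 and 20.7 CPM at T2 (log2 fold change -2.66, SE 0.53, adjusted p = 0.00469). Etv4, an ETS factor induced by FGF, stood at 166, 150.3 and 199 CPM at T0 and 52.9, 51.1, 36.3 and 56.2 CPM at T2 (log2 fold change -1.80, SE 0.17, adjusted p = 0.00014). For Dusp6 and Spry4, T0 replicate 3 lay far above the other T0 libraries, and without it the log2 fold changes were -1.71 and -1.56; for Etv4 it made little difference (-1.68). Egr1 (-2.04), Etv5 (-1.44) and Myc (-1.20) fell too, and Areg, a ligand of the EGF receptor outside the list, went from 47.9 ± 11.8 CPM (SD, n = 3) to 2.53 ± 0.435 CPM (SD, n = 4) (log2 fold change -4.23, SE 0.22, adjusted p = 3.70e-05). The 1 member that rose was Etv1, a relative of Etv4, at 91.3, 89.2 and 72.5 CPM at T0 and 191, 225, 158 and 143 CPM at T2 (log2 fold change 1.09, SE 0.18, adjusted p = 0.00173). The FPKM ratio of Etv1 to Etv4 was 0.125 to 0.201 at T0 and 1.08 to 1.85 at T2 (exact two-sided permutation p = 0.0571, the smallest possible). Spry2 (adjusted p = 0.11), Spred1 (adjusted p = 0.25) and Fos (adjusted p = 0.978) did not pass.

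The receptors changed in both directions, with 5 of 20 tested lower and 9 higher (median log2 fold change 0.51), and 6 and 10 without T0 replicate 3 (median 0.39). With all libraries the shares were 25% and 45%, against 21.8% and 21.4% of all genes tested. Fgfr3, an FGF receptor of radial glia and astrocytes, stood at 779, 681 and 229.9 CPM at T0 and 186, 149, 207 and 182 CPM at T2 (log2 fold change -1.64, SE 0.35, adjusted p = 0.00684). Fgfr1, a receptor of FGF2, stood at 483, 445 and 373 CPM at T0 and 230.0, 258, 205 and 275 CPM at T2 (log2 fold change -0.84, SE 0.14, adjusted p = 0.00198). Egfr went the other way, at 1060.0, 1023 and 837 CPM at T0 and 1454, 1974, 1094 and 1645 CPM at T2 (log2 fold change 0.66, SE 0.20, adjusted p = 0.0285), but its log2 fold change was 0.53 to 0.80 when 1 library was left out, with the call lost without T0 replicate 2 or T2 replicates 1, 2 or 4. Kit (chr5:75970941-76052747, plus strand), the receptor of stem cell factor, stood at 49.8, 47.2 and 24.7 CPM at T0 and 229, 245, 261 and 203 CPM at T2 (log2 fold change 2.53, SE 0.25, adjusted p = 0.00016). Pdgfra, the PDGF receptor of oligodendrocyte precursors, stood at 29.9, 26.9 and 3.65 CPM at T0 and 159.8, 161, 189 and 143 CPM at T2 (log2 fold change 3.02, SE 0.58, adjusted p = 0.00392). Erbb4, a neuregulin receptor of migrating interneurons, stood at 43.4, 44.2 and 6.53 CPM at T0 and 139.9, 187, 108 and 109.5 CPM at T2 (log2 fold change 2.12, SE 0.56, adjusted p = 0.0166). All 3 were lowest in T0 replicate 3, and without it they still rose, by 2.27, 2.52 and 1.63 on the log2 scale. Ntrk2, the receptor of the BDNF present in medium B, was at 188 to 582 CPM at T0 and 764 to 1055 CPM at T2 (log2 fold change 0.99, SE 0.35, adjusted p = 0.0493), with a log2 fold change that was 0.63 to 1.24 when 1 library was left out, with the call lost without T2 replicates 1, 2, 3 or 4. Ntrk3 rose by 1.32, and Igf2r (-1.46) fell, with -1.75 to -0.79 when 1 library was left out, with the call lost without T2 replicates 1, 2 or 4. Insr, Igf1r and Fgfr2 did not pass the test (adjusted p = 0.793, 0.971 and 0.267).

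The Notch ligands Dll4 and Dll1 rose while Hes5 and Lfng fell. Of 22 tested Notch pathway genes, 4 were lower and 6 higher, shares of 18.2% and 27.3% against 21.8% and 21.4% of all genes tested (median log2 fold change 0.27), and 5 and 7 without T0 replicate 3 (median 0.12). Dll4 (chr2:119151520-119161698, plus strand), a ligand, stood at 3.80, 2.35 and 1.83 CPM at T0 and 78.0, 78.2, 59.1 and 92.3 CPM at T2 (log2 fold change 4.86, SE 0.28, adjusted p = 4.69e-05), and Dll1, the ligand of newborn neurons, at 206, 195 and 128 CPM at T0 and 345, 370.0, 356 and 311 CPM at T2 (log2 fold change 0.97, SE 0.17, adjusted p = 0.0027). The other tested ligands, Dll3 (log2 fold change 0.27, adjusted p = 0.439), Jag1 (0.28, adjusted p = 0.167) and Jag2 (0.65, adjusted p = 0.222), did not pass. Hes5, a transcriptional target of Notch in neural progenitors, stood at 59.7, 58.3 and 27.0 CPM at T0 and 14.9, 9.19, 14.53 and 16.2 CPM at T2 (log2 fold change -1.81, SE 0.30, adjusted p = 0.00193). Lfng, a glycosyltransferase that tunes the receptors, fell by 0.98, with each T2 library between 153 and 184 CPM and each T0 library at 323 CPM or more, and Hes6 (-0.49) fell too. Numbl, which antagonises Notch, rose by 0.74, with 0.48 to 0.91 when 1 library was left out, with the call lost without T2 replicates 1, 2, 3 or 4. Hes1 (log2 fold change 0.08, adjusted p = 0.612), Notch1 (adjusted p = 0.931) and Hey1 (adjusted p = 0.463) did not pass. Notch3 was called lower, but T0 replicate 3, at 77.6 CPM, lay within the T2 range of 74.2 to 87.0 CPM and its log2 fold change was -1.19 to -0.69 when 1 library was left out, with the call lost without T0 replicates 1 or 2 or T2 replicates 1, 2, 3 or 4.

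In the BMP and TGF-beta list 6 of 22 tested were lower and 4 higher (median log2 fold change 0.12), and 8 and 6 without T0 replicate 3 (median -0.07). The shares of 27.3% and 18.2% lay near the 21.8% and 21.4% of all genes tested. Id3, a BMP target that blocks differentiation factors, stood at 330.0, 301 and 239 CPM at T0 and 162, 133, 168 and 154 CPM at T2 (log2 fold change -0.91, SE 0.14, adjusted p = 0.00131). Tgfb1 (-1.61), Tgfb3 (-0.93) and the receptor Tgfbr2 (-2.35) fell, while Tgfb2 (1.01), Bmpr1b (1.13) and Smad1 (0.87) rose. Tgfbr2 was at 72.2 CPM in T0 replicate 3 and at 15.1 and 14.97 CPM in replicates 1 and 2, and its change without that library was -1.18. For the Wnt pathway, 7 of 31 were lower and 9 higher (median 0.11), and 7 and 11 without T0 replicate 3 (median 0.06). Its shares, 22.6% and 29.0%, were also near those over all genes. Wnt5a, a ligand of the branch that does not use beta-catenin, stood at 102, 114 and 124 CPM at T0 and 247, 312, 227 and 297 CPM at T2 (log2 fold change 1.26, SE 0.14, adjusted p = 0.000339). Wnt4 (2.09) rose too, and the factor Tcf7 (-2.35, and -1.17 without T0 replicate 3), the antagonist Sfrp2 (-2.29) and the receptor Fzd9 (-0.89) fell. Wif1, an antagonist that binds Wnt ligands, rose, at 0.491 to 2.38 CPM at T0 and 4.48 to 11.7 CPM at T2 (log2 fold change 2.12, SE 0.55, adjusted p = 0.0145). Rnf43, which removes Wnt receptors from the surface, had 1 count in all T0 libraries together and 348 at T2, a ratio of 303 with a 95% counting interval of 54.1 to 1.2e+04. Axin2, the usual target gene of the pathway, was at 147 to 240.2 CPM at T0 and 121 to 155 CPM at T2; its fall passed the test (log2 fold change -0.57, SE 0.18, adjusted p = 0.0314), but T0 replicate 3 overlapped T2 and the change was -0.76 to -0.45 when 1 library was left out, with the call lost without T0 replicates 1 or 2 or T2 replicates 1, 3 or 4. Among 12 tested Hedgehog genes, 4 were lower and 1 higher, shares of 33.3% and 8.33% (median -0.06), and 4 and 2 without T0 replicate 3 (median -0.05). The lower count was 2 without T0 replicate 2. Gli3, a Gli factor that acts mainly as a repressor, stood at 40.1, 39.8 and 55.8 CPM at T0 and 16.1, 17.5, 11.4 and 15.6 CPM at T2 (log2 fold change -1.57, SE 0.19, adjusted p = 0.000392), the signal transducer Smo and the antagonist Hhip fell (-0.55 and -1.39, the latter -1.66 to -1.15 when 1 library was left out, with the call lost without T0 replicate 2), and Cdon, a co-receptor, rose to 88.1, 116, 95.1 and 69.8 CPM from 26.6, 29.1 and 40.4 CPM (log2 fold change 1.52, SE 0.21, adjusted p = 0.000797). Ptch1, which is both receptor and target, did not pass (adjusted p = 0.118).

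In cyclic nucleotide signalling more genes rose than fell, 10 against 1 of 25 tested, with a median log2 fold change of 0.42, and 11 and 2 without T0 replicate 3 (median 0.19). With all libraries the shares were 40% higher and 4% lower, against 21.4% and 21.8% of all genes tested. The higher count was 6 without T2 replicate 1. Pde9a (chr17:31523179-31613255, plus strand), a phosphodiesterase of cGMP, stood at 0.149, 0.069 and 0.421 CPM at T0 and 30.5, 23.5, 33.7 and 37.2 CPM at T2 (log2 fold change 7.13, SE 0.40, adjusted p = 4.69e-05), with a log2 fold change of 8.06 without T0 replicate 3. Adcy5 (chr16:35154963-35305823, plus strand), the adenylyl cyclase of striatal neurons, stood at 2.90, 3.73 and 1.48 CPM at T0 and 42.9, 61.6, 38.7 and 47.7 CPM at T2 (log2 fold change 4.14, SE 0.32, adjusted p = 7.80e-05). Adcy1, a calcium-stimulated cyclase of neurons, stood at 9.98, 9.25 and 9.13 CPM at T0 and 47.3, 68.1, 41.0 and 42.4 CPM at T2 (log2 fold change 2.39, SE 0.21, adjusted p = 0.000108). For these 3 genes no T0 library came near a T2 library. Pde2a (2.05) and Adcy2 (0.93) rose as well, and the catalytic subunit Prkaca fell by 0.61. Among calcium and calmodulin kinases 7 of 21 were lower and 9 higher (median -0.24), and 7 and 10 without T0 replicate 3 (median 0.01). The lower count was 4 without T2 replicate 1 or 4. Besides Camk2a (6.07), Camk2d (1.62), Camk2g (0.77), Camkk1 (1.76) and the protein kinase C genes Prkca (1.46), Prkcb (1.06) and Prkcc (1.76) rose, while Calm2 (-1.03), Camk2b (-1.09), Camk1g (-2.27) and Camkv (-2.67) fell. In FPKM the ratio of Camk2a to Camk2b was 0.00543 to 0.0329 at T0 and 0.982 to 1.66 at T2, with no overlap (exact two-sided permutation p = 0.0571, the smallest possible). Of 28 tested phosphoinositide and mTOR genes 2 were lower and 4 higher (median 0.04), below the shares over all genes, and 5 and 7 of 29 without T0 replicate 3 (median 0.11). The 2 lower genes were Igfbp2, a binder of insulin-like growth factors, at 784, 781 and 987 CPM at T0 and 302, 273, 274 and 276 CPM at T2 (log2 fold change -1.60, SE 0.12, adjusted p = 7.53e-05), and Eif4ebp1 (-1.24). The regulatory subunits Pik3r1 (0.77), Pik3r2 (0.66) and Pik3r3 (1.11) rose together with Sesn2 (1.07).

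**Figure D3:**
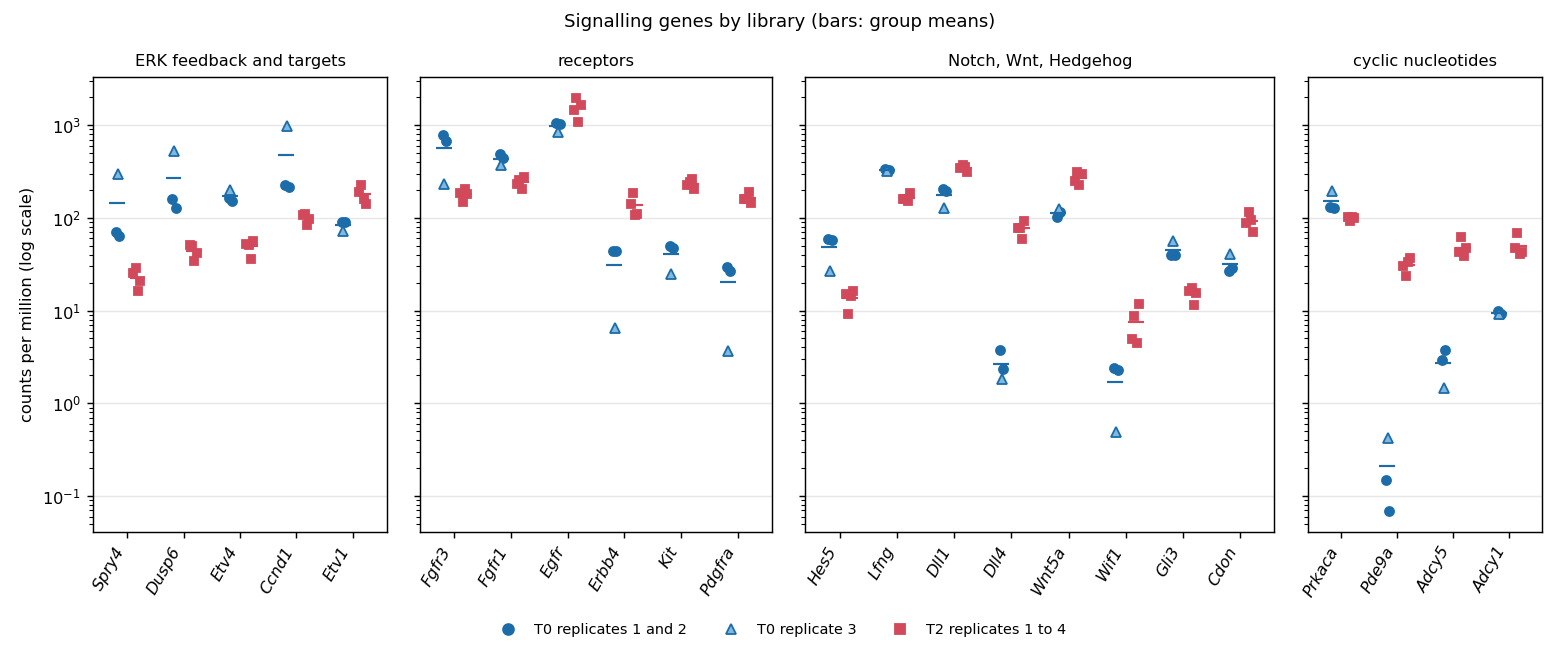
CPM, on a log scale, of 23 signalling genes in each library, with circles for T0 replicates 1 and 2, triangles for T0 replicate 3, squares for the 4 T2 libraries and horizontal bars for group means. The ERK targets shown fall except Etv1, Dll4 rises from at most 3.80 CPM to at least 59.1 CPM as Hes5 falls, and Pde9a rises from at most 0.421 CPM to at least 23.5 CPM.

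At the cell surface, more genes of the matrix and of its integrin receptors fell than rose. Of 25 tested genes of laminins, collagens and matrix, 11 were lower and 3 higher, with a median log2 fold change of -0.42, and 12 and 6 without T0 replicate 3 (median -0.49). A further 13 members did not pass the filter on low counts. Tnc (chr4:63620819-63681760, minus strand), tenascin C of the progenitor niche, stood at 551, 525 and 651 CPM at T0 and 85.2, 129.8, 128 and 104 CPM at T2 (log2 fold change -2.37, SE 0.17, adjusted p = 6.96e-05). Lama5, a laminin chain, stood at 500.3, 428 and 472 CPM at T0 and 115, 173, 95.3 and 139 CPM at T2 (log2 fold change -1.84, SE 0.19, adjusted p = 0.000216), and Fn1, fibronectin, at 199.6, 183 and 139 CPM at T0 and 42.2, 41.0, 76.4 and 42.6 CPM at T2 (log2 fold change -1.78, SE 0.24, adjusted p = 0.000754). The T0 and T2 ranges did not overlap for any of the 3, with the narrowest gap for Fn1 (139 against 76.4 CPM). Fbln2 (-4.50), Fbln1 (-1.87) and the perlecan gene Hspg2 (-1.86) fell too. Those that rose were the thrombospondins Thbs1 (log2 fold change 2.85, SE 0.55, adjusted p = 0.00418, with a log2 fold change of 3.93 without T0 replicate 3) and Thbs2 (log2 fold change 1.83, SE 0.33, adjusted p = 0.00303), which glia secrete and which promote synapses, and Tnr, tenascin R, whose log2 fold change was 1.63 to 2.57 when 1 library was left out, with the call lost without T0 replicates 1 or 2 or T2 replicates 1, 2, 3 or 4. Col6a1 was called lower although T0 replicate 3, at 8.78 CPM, lay below every T2 library and replicates 1 and 2 were at 99.2 and 91.7 CPM, and its log2 fold change was -2.40 to -1.48 when 1 library was left out, with the call lost without T0 replicates 1 or 2 or T2 replicates 1, 2, 3 or 4.

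Of 21 tested integrin and adhesion complex genes, 7 were lower and 3 higher (median log2 fold change -0.35), and 8 and 5 of 20 without T0 replicate 3 (median -0.23). With all libraries the shares were 33.3% and 14.3%, against 21.8% and 21.4% of all genes tested. The higher count was 1 without T2 replicate 1 or 2. Itga5, which pairs with integrin beta 1 to bind fibronectin, stood at 69.1, 66.6 and 102 CPM at T0 and 20.9, 21.0, 24.7 and 24.1 CPM at T2 (log2 fold change -1.80, SE 0.17, adjusted p = 0.000142). Itga1, Itgav and Itgb1 fell too (-1.72, -0.61 and -0.56), while Itga7, a laminin receptor, rose from 0.281 to 1.86 CPM to 4.34 to 7.67 CPM (log2 fold change 2.35, SE 0.51, adjusted p = 0.0067). Pxn, paxillin, rose by 0.32, with 0.27 to 0.37 when 1 library was left out, with the call lost without T0 replicate 2 or T2 replicates 1, 2, 3 or 4, and in the FPKM values with limma its log2 fold change was -0.20. Itgb8 rose by 1.38, with 0.99 to 1.67 when 1 library was left out, with the call lost without T2 replicates 1 or 2. Itga6 did not pass (log2 fold change 0.38, adjusted p = 0.0556). Of 18 tested proteoglycan genes, 5 were lower and 5 higher (median 0.39), and 7 and 6 without T0 replicate 3 (median 0.13). Cd44 (chr2:102651298-102741822, minus strand), the hyaluronan receptor, stood at 130.1, 131 and 136 CPM at T0 and 36.1, 30.4, 41.1 and 33.5 CPM at T2 (log2 fold change -1.91, SE 0.12, adjusted p = 4.69e-05). Sdc4 (-1.73), Sdc1 (-1.49) and Gpc6 (-1.99) fell with it. Cspg5, a neural chondroitin sulfate proteoglycan, stood at 124, 118 and 85.0 CPM at T0 and 453, 417, 572 and 460.3 CPM at T2 (log2 fold change 2.13, SE 0.18, adjusted p = 0.000101), and Bcan, brevican, rose by 1.06 and Gpc1 by 0.97. Over the proteoglycan list the groups did not overlap for 12 of 18 genes, against 54.2% of all genes tested. Its largest changes were named only among such genes.

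Genes for contact between neural cells rose, in the immunoglobulin-type and the synaptic list. Of 27 tested neural adhesion genes of the immunoglobulin type, 15 were higher and 1 lower, with a median log2 fold change of 1.31, and 16 and 4 without T0 replicate 3 (median 0.99). Of 24 tested genes of synaptic adhesion, 16 were higher and 1 lower, with a median of 1.09, and 17 higher without that library (median 0.86). Nfasc (chr1:134461268-134638374, minus strand), neurofascin of axons and nodes, stood at 0.521, 0.345 and 0.14 CPM at T0 and 12.4, 11.2, 8.77 and 11.4 CPM at T2 (log2 fold change 5.001, SE 0.36, adjusted p = 6.96e-05). Cntn1, a contactin, stood at 131, 139 and 53.1 CPM at T0 and 809, 589, 909 and 556 CPM at T2 (log2 fold change 2.73, SE 0.36, adjusted p = 0.000646). Cadm2, a synaptic cell adhesion molecule, stood at 29.6, 38.9 and 5.34 CPM at T0 and 248, 242, 261 and 214 CPM at T2 (log2 fold change 3.29, SE 0.55, adjusted p = 0.00211). T0 replicate 3 was the lowest library for all 3, and without it they rose by 4.64, 2.40 and 2.81 on the log2 scale. Cadm3 (3.77), Dscam (3.28), Opcml (4.14, and 4.78 without T0 replicate 1), Cntn6 (4.36) and Alcam (1.71) were among the others. The 1 member that fell was Mcam, at 69.0, 67.0 and 62.4 CPM at T0 and 23.9, 23.8, 21.6 and 23.3 CPM at T2 (log2 fold change -1.51, SE 0.10, adjusted p = 5.79e-05). Ncam1, L1cam, Nrcam and Chl1 did not pass the test, with log2 fold changes of 0.56, 0.51, 0.22 and 0.20.

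Nlgn1, a postsynaptic neuroligin, stood at 22.6, 25.0 and 6.74 CPM at T0 and 68.4, 76.3, 79.1 and 66.1 CPM at T2 (log2 fold change 2.001, SE 0.38, adjusted p = 0.00388). Nlgn2, the neuroligin of inhibitory synapses, rose by 0.95, Lrrtm2 by 1.80 and Lrrtm3 by 3.29 (3.97 without T0 replicate 1). Ntng2 rose by 2.37 and the presynaptic partner Nrxn2 by 1.23. Lrrtm4 had 2 counts over the T0 libraries and 89 at T2, a ratio of 38.8 with a 95% counting interval of 10.4 to 325. The 1 member that fell was Lphn2 (log2 fold change -0.50, SE 0.16, adjusted p = 0.0381), whose log2 fold change was -0.61 to -0.38 when 1 library was left out, with the call lost without T0 replicates 1 or 3 or T2 replicates 1, 3 or 4.

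Of 22 tested cadherins and protocadherins, 6 were lower and 7 higher (median log2 fold change 0.24), and 8 and 8 without T0 replicate 3 (median 0.14). With all libraries the shares were 27.3% and 31.8%, against 21.8% and 21.4% of all genes tested. Cdh11 (chr8:105156895-105309011, minus strand), a classical cadherin of type II, stood at 1.12, 2.21 and 0.772 CPM at T0 and 40.7, 37.5, 34.9 and 41.1 CPM at T2 (log2 fold change 4.80, SE 0.31, adjusted p = 4.97e-05), and Pcdh15, a protocadherin known from the hair cell, at 0.67, 0.138 and 0.0702 CPM at T0 and 40.4, 41.9, 39.3 and 22.1 CPM at T2 (log2 fold change 6.92, SE 0.52, adjusted p = 7.53e-05, and 8.29 without T0 replicate 1). Pcdh1 rose by 1.41, Cdh4 (-1.22), Cdh22 (-0.92) and Celsr1 (-1.44) fell, and Cdh2, N-cadherin, did not pass (log2 fold change 0.30, adjusted p = 0.0685). Of 35 tested axon guidance genes, 14 were higher and 2 lower, and 19 and 7 of 36 without T0 replicate 3, with a median of 0.54 in both cases. Ephb1 (chr9:101824458-102257023, minus strand), an Eph receptor tyrosine kinase, stood at 2.53, 2.83 and 2.95 CPM at T0 and 120.3, 125, 179 and 140.5 CPM at T2 (log2 fold change 5.67, SE 0.20, adjusted p = 7.62e-06). The T0 values lay close together and far below every T2 value. Ephb2 (3.48), Dcc (2.31), which receives netrin, Unc5a (2.73), Unc5c (2.35) and Unc5d (3.90) rose too. Plxna4, a semaphorin receptor, had 2 counts over the T0 libraries and 170 at T2, a ratio of 74 with a 95% counting interval of 20.2 to 616. The ligand Efna1 (-1.73) and the receptor Plxnd1 (-0.78) fell, and the netrin genes Ntn1 and Ntn4 did not pass (adjusted p = 0.11 and 0.15). Of 26 tested cytoskeletal and junction genes, 9 were lower and 3 higher (median -0.15), and 9 and 4 without T0 replicate 3 (median -0.17). Lgals1, galectin 1, stood at 1055, 1172 and 1160.0 CPM at T0 and 304, 240.0, 280.4 and 311 CPM at T2 (log2 fold change -1.99, SE 0.12, adjusted p = 4.69e-05). Anxa1 (-1.95), the lamins Lmnb1 (-1.45) and Lmnb2 (-1.09) and vimentin, Vim (-0.57), fell, Synm (1.83), Myl9 (1.42) and Tagln (1.11) rose, and nestin, Nes, did not pass (adjusted p = 0.528).

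Progenitor transcription factors changed in both directions. Of 26 tested, 7 were lower and 6 higher, shares of 26.9% and 23.1% against 21.8% and 21.4% of all genes tested (median log2 fold change -0.02), and 9 and 7 without T0 replicate 3 (median -0.23). The higher count was 3 without T2 replicate 2 or 3 and 2 without T2 replicate 4. Hmga2, an architectural protein of young stem cells, stood at 64.7, 62.4 and 70.5 CPM at T0 and 21.1, 20.6, 16.9 and 17.1 CPM at T2 (log2 fold change -1.80, SE 0.13, adjusted p = 6.96e-05). Foxm1 (-2.45), Mybl2 (-2.51) and E2f1 (-1.85), which drive the cell cycle, fell, as did Hmgb2 (-2.77), a chromatin protein of dividing cells, and Tead2 (-1.24), a factor of the Hippo pathway. Sox3 (chrX:58144545-58146605, minus strand) stood at 70.0, 69.3 and 209 CPM at T0 and 284, 334, 335 and 370.0 CPM at T2 (log2 fold change 1.51, SE 0.39, adjusted p = 0.0141). T0 replicate 3 was the nearest T0 library to T2, and without it Sox3 rose by 2.25. Sox21 (1.07) rose as well, and so did Sox9 (1.08), with 0.73 to 1.31 when 1 library was left out, with the call lost without T2 replicates 1, 2, 3 or 4. Sox2 was at 185 to 427 CPM at T0 and 333 to 457 CPM at T2 (adjusted p = 0.64), Olig2 at 933 to 1345 CPM at T0 and 1169 to 1261 CPM at T2 (adjusted p = 0.467) and Pax6 at 40.2 to 56.0 CPM at T0 and 52.9 to 58.7 CPM at T2 (adjusted p = 0.445).

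Of 27 tested neuronal transcription factors, 10 were higher and 4 lower, with or without T0 replicate 3 (28 tested without it), and 17 members did not pass the filter. The median log2 fold change was 0.36, and 0.22 without that library. The lower count was 2 without T0 replicate 2 or T2 replicate 1, 3 or 4. Bcl11b, a zinc finger factor of striatal projection neurons, stood at 4.62, 4.90 and 3.72 CPM at T0 and 22.6, 26.3, 21.0 and 18.0 CPM at T2 (log2 fold change 2.31, SE 0.19, adjusted p = 0.000102). Neurog2 (chr3:127336054-127338549, plus strand), a proneural factor best known from glutamatergic progenitors, stood at 0.447, 0.276 and 0 CPM at T0 and 18.2, 15.8, 24.5 and 11.9 CPM at T2 (log2 fold change 6.15, SE 0.56, adjusted p = 0.000134), with a log2 fold change of 6.88 without T0 replicate 1. Myt1, a zinc finger repressor of progenitor genes, stood at 96.5, 89.3 and 25.9 CPM at T0 and 295, 349, 276 and 202 CPM at T2 (log2 fold change 1.99, SE 0.42, adjusted p = 0.00624). These levels were higher in every T2 library than in any T0 library, and Bcl11b and Neurog2 started from under 5 CPM. Over the list the groups did not overlap for 14 of 27 genes, near the 54.2% of all genes tested. Scrt1 (2.58) and Meis2 (1.01) rose too, while Mef2c (-0.9983) and Pbx3 (-0.91) fell, as did Zeb1 (-0.37, with -0.45 to -0.30 when 1 library was left out, with the call lost without T0 replicates 1 or 2 or T2 replicates 1, 3 or 4). Of 19 neuron markers 11 were tested, and 10 of these were higher (10 of 10 without T0 replicate 3), against 21.4% of all genes tested. The other 8 did not pass the filter, and 5 of the 19 had at most 3 counts in every library. Mapt, tau, rose from 13.7 ± 10.1 CPM (SD, n = 3) to 161 ± 12.6 CPM (SD, n = 4) and Ina from 41.1 ± 11.1 CPM (SD, n = 3) to 81.6 ± 4.94 CPM (SD, n = 4).

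Of 13 tested markers of the oligodendrocyte lineage, 6 were higher and 0 lower in edgeR (median log2 fold change 0.78), and 8 higher and 2 lower of 15 without T0 replicate 3 (median 0.34). The higher count was 2 without T2 replicate 2 or 3 and 3 without T0 replicate 1 or 2 or T2 replicate 1 or 4. At an unadjusted p below 0.05, 0 were lower with all 7 libraries, and DESeq2 called 2 lower. Gpr17, a receptor of committed precursors, stood at 102, 102 and 0.913 CPM at T0 and 632, 423, 761 and 424 CPM at T2. T0 replicate 3, below 1 CPM, was far under the other T0 libraries. The log2 fold change was 3.03 with it (adjusted p = 0.0448) and 2.45 without it, and 2.45 to 3.44 when 1 library was left out, with the call lost without T0 replicates 1 or 2 or T2 replicates 1, 2, 3 or 4. Mog, a myelin protein, was at 0 to 0.552 CPM at T0 and 1.35 to 2.99 CPM at T2 (log2 fold change 3.07, SE 0.69, adjusted p = 0.00796), with log2 fold changes of 4.25 without T0 replicate 2 and 2.47 without T0 replicate 3, and Opalin had 0 counts at T0 and 42 at T2, at least 12.2-fold higher against a floor of 3 counts over the T0 libraries. Opalin did not pass the filter on low counts without T2 replicate 2, 3 or 4. Olig1 was at 2174 to 2287 CPM at T0 and 2631 to 3085 CPM at T2 (log2 fold change 0.34, SE 0.11, adjusted p = 0.0426), and its change was 0.29 to 0.36 when 1 library was left out, with the call lost without T0 replicates 1 or 2 or T2 replicates 1, 2, 3 or 4. Among 13 tested astrocyte markers 5 were lower and 1 higher (median -0.30), and 7 and 2 without T0 replicate 3 (median -0.52). The lower count was 3 without T0 replicate 1 or 2 or T2 replicate 1, 2 or 3. Gfap varied from library to library, at 146, 148 and 0.491 CPM at T0 and 121, 72.5, 200.1 and 108 CPM at T2 (adjusted p = 0.805). The part of a changing mixture of cell types in the values above was not tested.

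Among chromatin genes Uhrf1, Dnmt1 and Ezh2 fell, and Chd3 and Chd5 rose. Of 39 tested, 12 were lower and 7 higher, shares of 30.8% and 17.9% against 21.8% and 21.4% of all genes tested (median log2 fold change -0.11), and 13 and 9 without T0 replicate 3 (median -0.04). Uhrf1 (chr17:56442744-56462909, plus strand), which brings the maintenance methylase to new DNA, stood at 159, 152 and 265 CPM at T0 and 24.8, 29.0, 16.6 and 20.9 CPM at T2 (log2 fold change -3.07, SE 0.25, adjusted p = 9.27e-05). Dnmt1, that methylase, stood at 425, 437 and 577 CPM at T0 and 138, 142, 109 and 116 CPM at T2 (log2 fold change -1.93, SE 0.15, adjusted p = 8.33e-05). Ezh2, the methyltransferase of Polycomb complex 2, stood at 176, 184 and 257 CPM at T0 and 72.7, 71.9, 67.6 and 61.1 CPM at T2 (log2 fold change -1.59, SE 0.15, adjusted p = 0.000142). Hells, a replication-linked remodeller, fell too (-2.99). The partners of Ezh2, Suz12 (-0.98) and Eed (-0.93), fell by less. Chd3 (chr11:69156775-69182928, minus strand), an ATPase of the NuRD complex, stood at 25.9, 27.0 and 11.9 CPM at T0 and 148, 176, 144 and 106 CPM at T2 (log2 fold change 2.73, SE 0.31, adjusted p = 0.000292), and Chd5, its neuronal relative, rose by 1.99. Within the BAF complex, Actl6a (-0.94) fell while Ss18l1 (0.98), Smarcd3 (0.95) and Smarca2 (1.33) rose. The FPKM ratio of Smarca2 to Smarca4 was 0.158 to 0.353 at T0 and 0.612 to 0.766 at T2, again with no overlap (exact two-sided permutation p = 0.0571). Smarca4 was called lower, with the call lost without T0 replicates 1 or 2 or T2 replicates 1, 3 or 4. In those omissions its log2 fold change was -0.32 to -0.26. Dnmt3a, Tet1, Tet3 and Bmi1 did not pass the test.

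Of 32 tested RNA-binding regulators, 13 were higher and 6 lower (median log2 fold change 0.17), and 15 and 7 of 31 without T0 replicate 3 (median 0.29). Ptbp1 (chr10:79317172-79327516, plus strand), the splicing repressor of progenitors, stood at 154, 136 and 297 CPM at T0 and 100, 99.0, 85.2 and 105 CPM at T2 (log2 fold change -1.005, SE 0.25, adjusted p = 0.0131), and Ptbp2, its neural relative, at 192, 198 and 201 CPM at T0 and 291, 296, 313 and 279 CPM at T2 (log2 fold change 0.58, SE 0.09, adjusted p = 0.00173). The FPKM ratio of Ptbp2 to Ptbp1 was 0.269 to 0.558 at T0 and 0.928 to 1.56 at T2 (exact two-sided permutation p = 0.0571). Elavl3 (2.80) rose, Elavl1 and Elavl2 did not pass (adjusted p = 0.216 and 0.416), and Elavl4 had a log2 fold change of -0.94 (adjusted p = 0.0677). Further splicing and tail factors rose, Celf4 (2.45), Celf5 (2.01) and Celf6 (2.65) and Nova1 (1.26), which regulate splicing, and Cpeb1 (2.60), Cpeb2 (0.94), Cpeb3 (1.78) and Cpeb4 (0.76), which act on polyA tails. The IGF2 mRNA binders Igf2bp2 (-0.91) and Igf2bp3 (-0.58) fell, with Mbnl1 (-0.89).

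**Figure D4:**
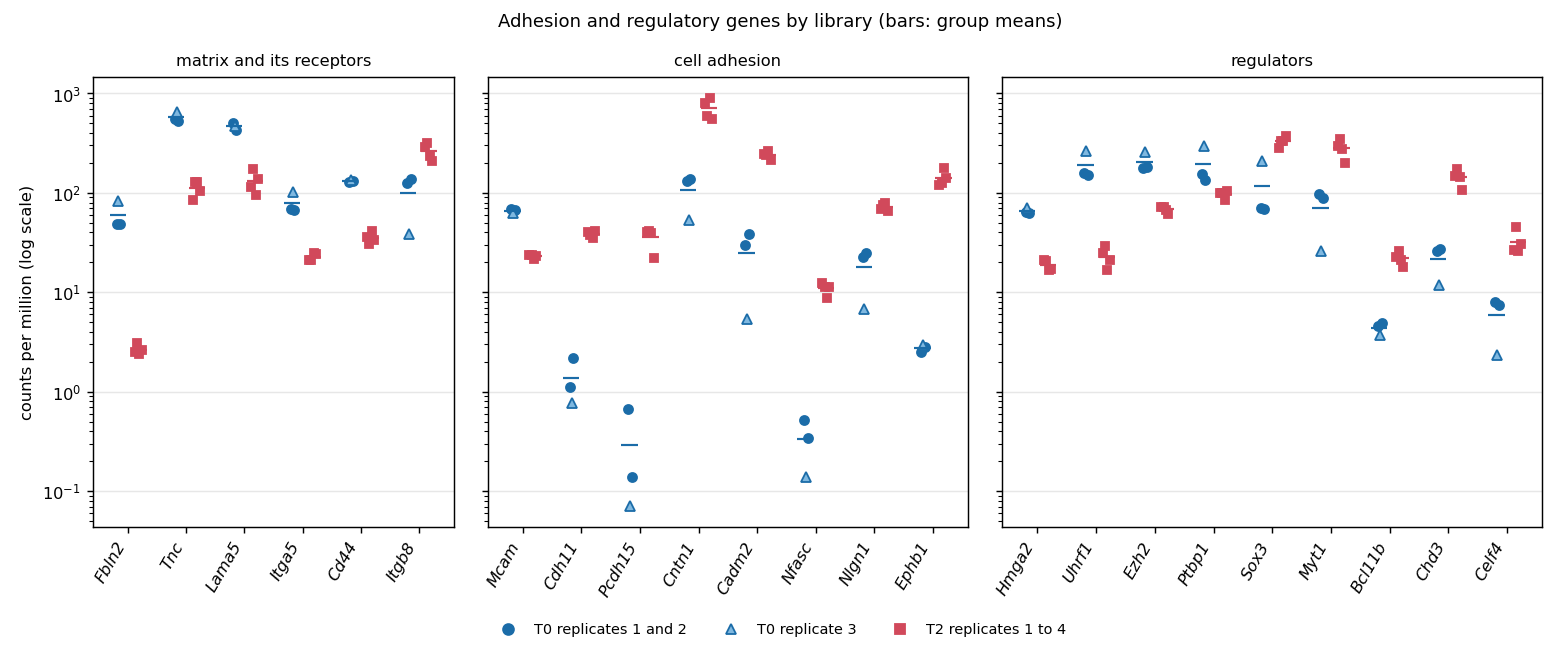
CPM, on a log scale, of 23 adhesion and regulatory genes in each library, with circles for T0 replicates 1 and 2, triangles for T0 replicate 3, squares for the 4 T2 libraries and horizontal bars for group means. Matrix genes such as Tnc and Fbln2 fall, neural adhesion genes such as Cdh11 and Ephb1 rise, and T0 replicate 3 lies below the other T0 libraries for Itgb8 (38.4 CPM), Cadm2 (5.34 CPM) and Chd3 (11.9 CPM).

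Among genes of G1, cyclins D1 and D2 fell and cyclin D3 rose. Of 29 tested G1 cyclins, E2F partners and inhibitors, 10 were lower and 2 higher (median log2 fold change -0.30), and 13 and 3 without T0 replicate 3 (median -0.23). Ccnd2, a D-type cyclin of neural progenitors, stood at 539.8, 579 and 880.4 CPM at T0 and 146, 208, 97.2 and 139 CPM at T2 (log2 fold change -2.18, SE 0.27, adjusted p = 0.000453), and Ccnd1 at 229, 216 and 972 CPM at T0 and 108, 110.2, 84.0 and 96.4 CPM at T2 (log2 fold change -2.24, SE 0.50, adjusted p = 0.00753). T0 replicate 3 was at more than 4 times the other T0 libraries for Ccnd1, and the change without it was -1.16. Ccnd3, the D-type cyclin also seen in cells leaving the cycle, rose (log2 fold change 0.68, SE 0.16, adjusted p = 0.00996), and the pocket protein Rbl1 fell (-2.46). Of the inhibitors, Cdkn1a was at 34.7 to 60.1 CPM at T0 and 41.7 to 49.5 CPM at T2 (adjusted p = 0.927), Cdkn1b was at 122 to 179 CPM at T0 and 114 to 129 CPM at T2 (adjusted p = 0.0628), and Cdkn2a (-1.03) and Cdkn2c (-1.24) fell. Gadd45g, a growth arrest gene that acts downstream of proneural factors, stood at 95.05, 87.8 and 35.3 CPM at T0 and 225, 160.5, 241 and 232 CPM at T2 (log2 fold change 1.56, SE 0.32, adjusted p = 0.00577).

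Over all genes, the 10 largest falls and the 10 largest rises were taken among called genes whose T0 and T2 libraries did not overlap and whose average log2 CPM was 3 or more. Of the falls, Car3, a carbonic anhydrase, stood at 14.4, 12.7 and 178 CPM at T0 and 1.35, 0.835, 1.28 and 0.92 CPM at T2 (log2 fold change -5.97, SE 1.06, adjusted p = 0.00277). T0 replicate 3 lay far above the other T0 libraries, and without it the log2 fold change was -3.64. Car3, Myo5b (-4.54), a myosin motor, and Cdca7l (-3.50), a nuclear protein, lie outside the lists, Exo1 (-3.70), Bub1b (-3.64), Hmmr (-3.59) and Kif2c (-3.53) act in DNA repair or on the spindle, and Gcnt4, a glycosyltransferase, went from 29.0 ± 1.99 CPM (SD, n = 3) to 1.85 ± 0.393 CPM (SD, n = 4). Of the rises, Helt (chr8:47377404-47380025, minus strand), a factor of GABAergic neurons, stood at 0.149, 0.138 and 0.0702 CPM at T0 and 13.5, 11.7, 19.1 and 13.5 CPM at T2 (log2 fold change 6.82, SE 0.36, adjusted p = 3.70e-05), and Dpp6, an auxiliary subunit of potassium channels, at 0.447, 0.345 and 0.14 CPM at T0 and 20.6, 25.0, 22.4 and 31.5 CPM at T2 (log2 fold change 6.29, SE 0.33, adjusted p = 3.70e-05). Psd2, an exchange factor for Arf proteins, rose from 0.507 ± 0.45 CPM (SD, n = 3) to 34.9 ± 15.2 CPM (SD, n = 4), with a log2 fold change of 6.10, and 6.92 without T0 replicate 1. The others were Pde9a, Pcdh15, Neurog2, Camk2a and Ephb1, described above, with Dcx (6.06) of young neurons and Tmem132b, which had 3 counts over the T0 libraries and 2310 at T2, a ratio of 671 with a 95% counting interval of 229 to 3.26e+03. For Helt, Dpp6 and Psd2 the T0 libraries held at most 0.968 CPM and the T2 libraries at least 11.7 CPM.

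Leaving out T0 replicate 3 moved the level of several lists but not the side on which the strongly changed ones lay. The medians of cholesterol synthesis (-1.005 to -0.55), ERK feedback and targets (-0.75 to -0.40) and nucleotide synthesis (-1.16 to -0.83) came nearer to 0. Those of glycolysis (-1.16 to -1.10) and axon guidance (0.54 to 0.54) hardly moved. Those of synaptic (1.09 to 0.86) and immunoglobulin-type adhesion (1.31 to 0.99) came down.

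**Figure D5:**
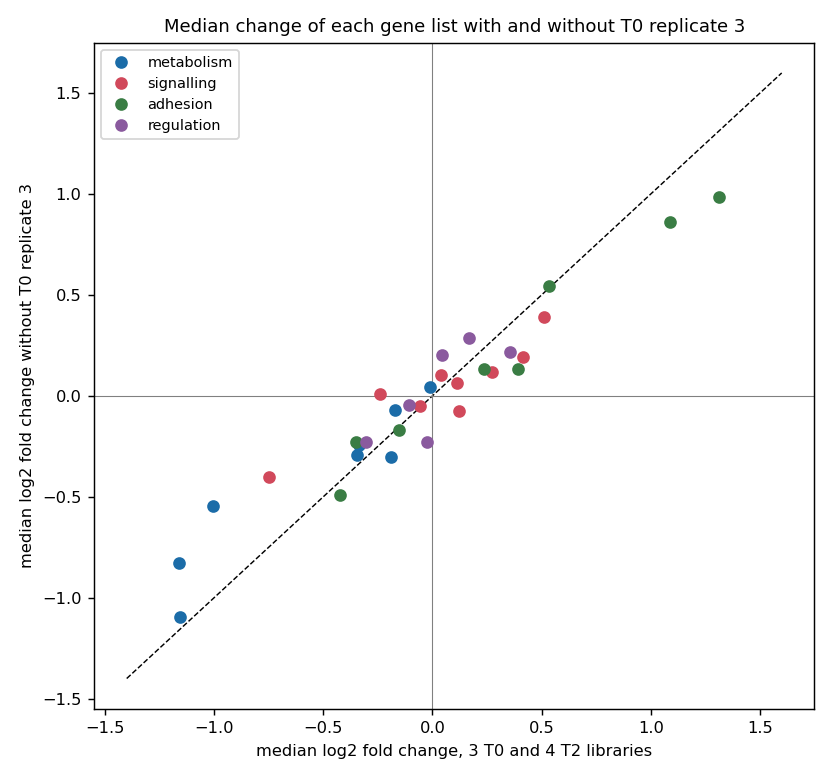
Median log2 fold change of each of 31 gene lists, T2 against T0, from all 7 libraries (horizontal axis) and without T0 replicate 3 (vertical axis), coloured by programme, with a dashed line where the 2 would be equal. The lists with medians beyond 0.5 in either direction keep their sign, and cholesterol synthesis (-1.005 against -0.55) lies farthest above the line.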

How the data were processed

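PolyA RNA of 3 T0 and 4 T2 cultures was sequenced by the submitters. Per the labels and the submitters' processing notes, libraries were demultiplexed with CASAVA 1.8, aligned to mouse mm9 with TopHat2 2.0.6 and Bowtie 0.12.7.0, and counted per gene with HTSeq 0.6.0. The authors deposited these as raw read counts, 1 table per library, with reads that align more than once left out, and also deposited a table of FPKM values, used here only for ratios between genes and as an alternative. The strand setting of the counting was not given in the sources used here, so a gene and its antisense partner cannot be told apart. The 5 entries that name no gene were removed from each table, of which reads on no feature were 13.3% to 24.1% of uniquely aligned reads, and 22609 genes remained. Columns of samples from outside the series numbered 0.

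Counts were tested with the quasi-likelihood test of edgeR 4.0.16 in R 4.3.3 on the 7 libraries, with TMM factors, the filterByExpr filter and Benjamini-Hochberg adjustment over the 12607 genes left, at a threshold of 0.05. CPM are counts scaled to library size with the TMM factors, levels are means ± SD, and SE is that of the fitted log2 fold change. The fit was tested on simulated data. A group with 0 counts was set at a floor of 3 counts, and ratios resting on 1 to 3 counts have exact 95% counting intervals, which cover counting error only. Named genes were the 10 largest falls and rises among called genes whose groups did not overlap and whose average log2 CPM was 3 or more, up to 3 of each per list at 1 or more, called cell type markers, members whose lack of a call bears on their pathway, and further members chosen after their values were seen. All genes and lists were chosen with earlier results of these data known. Some list members are counted but not reported by name here. Alternatives were DESeq2 1.42.0, limma 3.58.1 on log2(FPKM + 1), other scalings, filters and fits, and omission of each library in turn. Gene positions are whole gene spans in mm9. RefSeq starts on chromosome 18 were left out of the motif search. The motifs searched on both strands of 250 bases before RefSeq starts (GRCm38.p6), some of which overlap others, were CCAAT (bound by NF-Y), TCACNCCAC and TCACCCCAC (sterol element), TTTNGCGC (E2F), TTTGAA (cell cycle homology region), TGACTCA (AP-1), TGACGTCA (CREB), ACGTG with its longer forms GGACGTG or TACGTG (hypoxia element), CACGTG (E-box), CAGCTG besides CAGATG (proneural E-boxes), CAGGAAG (ETS), GTGGGAA (RBPJ) and TCTCGCGA (a promoter element).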

Additional observations from a re-analysis of the deposited data

Results flagged for a closer look

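Reads counted on genes in T2 replicate 4 numbered 16048942, against 10118378 to 10760862 in the other T2 libraries, a gap to the nearest library of 0.892 of the range of the 4, above the 95% critical value of Dixon's test for 4 samples. Levels in CPM are scaled for this total. Among 325 genes followed by name or by the naming rule, 20 had a T2 library as far from the others in CPM, and chance gives about 1 such gene in 20. The T2 library that stood apart was the highest for Camk1g (0.847, replicate 1 at 0.868 CPM), Fn1 (0.957, replicate 3 at 76.4 CPM), Igfbp2 (0.883, replicate 1 at 302 CPM), Myo5b (0.956, replicate 4 at 2.08 CPM), Nrxn2 (0.837, replicate 2 at 417 CPM), Pcdh1 (0.854, replicate 2 at 47.9 CPM), Pfkp (0.848, replicate 2 at 4.08 CPM), Slc2a3 (0.85, replicate 3 at 26.2 CPM), Spry2 (0.902, replicate 2 at 92.5 CPM), Tubb3 (0.887, replicate 3 at 173 CPM) and Vegfa (0.852, replicate 3 at 37.3 CPM). It was the lowest for Alcam (0.868, replicate 4 at 156 CPM), Glul (0.924, replicate 2 at 262 CPM), Hk2 (0.861, replicate 3 at 14.9 CPM), Hsd17b7 (0.904, replicate 3 at 15.2 CPM), Pcdh15 (0.869, replicate 4 at 22.1 CPM), Pfkm (0.919, replicate 2 at 199 CPM), Plxnd1 (0.863, replicate 1 at 64.1 CPM), Psat1 (0.876, replicate 3 at 337 CPM) and Stard4 (0.855, replicate 3 at 14.53 CPM). Groups of 3, as at T0, were not tested in this way.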

How the results depend on the processing

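The counts of 2751 lower and 2704 higher genes ran from 2086 to 3215 and from 2007 to 3391 when 1 library was left out. The count of called members of all lists together, 422, stayed within 1.5 times under every alternative, but single lists moved by more. Of the main calls, 96.7% of the lower and 98.2% of the higher were shared without T0 replicate 3. DESeq2 called 3042 and 3028. With the replicate number as a block, 1535 and 1622 genes were called. Lower genes were then 6 of 23 in cholesterol synthesis, 5 of 21 in ERK feedback and targets and 8 of 27 in pyruvate oxidation and the citric acid cycle. In the main fit they were 18, 11 and 15. Nucleotide synthesis kept 15 lower of 24 and glycolysis 12 of 21, against 21 and 14. Synaptic adhesion kept 13 higher of 24, against 16. The labels do not say whether the numbers pair the cultures. Deviations of same-numbered libraries from their group means correlated at -0.0957, 0.0539 and -0.14, and not every library correlated best with its own number. With 3 and 4 libraries, and T0 replicate 3 far from the others, these correlations cannot decide whether same-numbered cultures were paired. With limma on log2(FPKM + 1), 2779 lower and 1608 higher genes were called, 63.4% lower against 50.4% in counts, and the median of all genes was -0.16. That scale reversed Pxn (-0.20). Sqle, not called with all 7 libraries, ran from -0.22 to 0.42 over the omissions. With libraries numbered 1 and 2 only, Gfap (-0.61), Hspa5 (0.51), Sox2 (-0.28) and Sqle (0.50) passed the threshold with the sign opposite to their uncalled values, as did Sqle without T0 replicate 3 (0.42). The cause was not tested. The 4 T2 libraries differ in depth, and genes under the filter cannot be compared.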
